A study of Mus musculus with 8 samples.

Results

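Tbc1d2, Prom1, Mfsd7a, Tmcc3 and Tns1 are the 5 genes that the study's plot of resting macrophages labels as lower in FURIN KO cells. They are 5 of 20887 named genes on a mouse expression array, and 9 of its 55681 gene probes report them: Mfsd7a has 1 probe and each of the others has 2. The brighter or only probe of all 5 passed the filter on dim probes, a mean log2 intensity of at least 6, and none of their spots was saturated or marked as an outlier. The genes were selected on their measured KO/WT values in resting cells, so the resting ratio is given for every member as a description with no test.

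The cells were adherent peritoneal macrophages of C57BL/6 mice. The KO mice carried LysMCre-fur fl/fl, in which the Cre recombinase expressed from the Lyz2 (lysozyme M) locus deletes a floxed Furin in myeloid cells, and the WT cells came from littermates. Both genotypes were left untreated (resting) or were stimulated with bacterial lipopolysaccharide (LPS) for 1, 4 or 24 h, with 2 biological replicates at each time, and RNA of KO and WT was hybridised together on each of 8 arrays. KO RNA carried Cy5 in replicate 1 and Cy3 in replicate 2, so dye and replicate cannot be told apart. The common growth description in the labels gives 4 h of stimulation for every sample, and each sample was placed at the time in its title. The number of mice behind a sample was not given in the sources used here.

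The 5 genes act in different parts of the cell. Tbc1d2 (Armus) is a GTPase-activating protein for Rab7, the small GTPase that governs late endosomes and lysosomes, and it also binds Rac1. Prom1 (prominin-1, CD133) is a cholesterol-binding glycoprotein of plasma membrane protrusions and a marker of progenitor cells. Mfsd7a, also called Slc49a3, is a membrane transporter of the major facilitator superfamily whose best-known relatives are the FLVCR proteins. Tmcc3 is a coiled-coil membrane protein of the endoplasmic reticulum, and Tns1 (tensin 1) links integrins to actin at focal adhesions. FURIN itself is a convertase that cleaves precursor proteins into their mature forms, and LPS activates macrophages through TLR4.

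The genes lie on chromosomes 4 (Tbc1d2), 5 (Prom1 and Mfsd7a), 10 (Tmcc3) and 1 (Tns1). Tmcc3 shares chromosome 10 with Lyz2, with 99 of the chromosome's 1001 protein-coding genes between them in RefSeq's GRCm38.p6 annotation. The promoters of Tbc1d2, Prom1 and Mfsd7a are printed because these are the 3 members whose KO/WT ratio was farthest below 0 after 1 h of LPS. Each is a 300-base window around a RefSeq start in build GRCm38.p6, read 5′ to 3′ on the gene's strand, and all 4 lie on the minus strand. Capitals mark matches, on either strand, to 7 motifs of factors known in macrophages.
Tbc1d2, chr4:46650150-46650449: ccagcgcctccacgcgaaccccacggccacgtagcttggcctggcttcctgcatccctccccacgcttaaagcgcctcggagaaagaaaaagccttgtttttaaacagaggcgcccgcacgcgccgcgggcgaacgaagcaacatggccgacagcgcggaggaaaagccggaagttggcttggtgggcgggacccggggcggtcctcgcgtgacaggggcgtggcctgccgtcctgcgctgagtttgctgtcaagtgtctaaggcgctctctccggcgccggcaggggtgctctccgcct
Prom1, first start in the table, chr5:44094719-44095018: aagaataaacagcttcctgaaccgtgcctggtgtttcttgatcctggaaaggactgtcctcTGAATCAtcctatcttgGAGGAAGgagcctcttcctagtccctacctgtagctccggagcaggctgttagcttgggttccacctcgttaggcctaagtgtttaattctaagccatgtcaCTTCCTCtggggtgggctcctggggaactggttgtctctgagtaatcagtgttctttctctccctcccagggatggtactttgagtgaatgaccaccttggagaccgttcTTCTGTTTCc
Prom1, second start in the table, chr5:44101687-44101986: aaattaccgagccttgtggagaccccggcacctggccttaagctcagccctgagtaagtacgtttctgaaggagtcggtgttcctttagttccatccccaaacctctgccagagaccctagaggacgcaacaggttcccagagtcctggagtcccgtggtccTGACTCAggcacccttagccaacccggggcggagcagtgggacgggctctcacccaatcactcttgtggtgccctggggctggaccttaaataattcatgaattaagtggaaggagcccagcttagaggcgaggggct
Mfsd7a, chr5:108449051-108449350: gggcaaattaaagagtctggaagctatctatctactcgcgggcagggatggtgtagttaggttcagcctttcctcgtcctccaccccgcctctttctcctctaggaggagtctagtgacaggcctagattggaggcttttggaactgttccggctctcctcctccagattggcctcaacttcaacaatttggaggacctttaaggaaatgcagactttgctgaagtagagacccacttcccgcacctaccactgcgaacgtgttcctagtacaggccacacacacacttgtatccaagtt

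The motifs searched were the PU.1 core GAGGAAG, AP-1 TGANTCA, GAS TTCNNNGAA, ISRE GAAANNGAA, E-box CACGTG, SMAD CAGACA and the NF-kB consensus, each on both strands. In the first Prom1 window the PU.1 core matched at bases 79 to 85 (GAGGAAG) and, on the other strand, at bases 181 to 187 (CTTCCTC), AP-1 matched at bases 62 to 68 (TGAATCA), and ISRE at bases 291 to 299 on the other strand (TTCTGTTTC). In the second Prom1 window AP-1 matched at bases 163 to 169 (TGACTCA). Of 32851 mouse promoters of this length, 13.6% held the PU.1 core and 7.81% held AP-1. No motif matched in the Tbc1d2, Mfsd7a or Tns1 windows, and 3 of the 6 Tmcc3 windows held AP-1 or NF-kB, a pair of them overlapping. The NF-kB consensus was found in 8.46% of all promoters, GAS in 8.3%, ISRE in 8.56%, the E-box in 7.15% and SMAD in 21.0%.

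The deleted gene was examined first. On the 2 resting arrays log2 KO/WT of Furin was -0.59 and -0.85, and after 1 h of LPS it was -0.56 and -0.55. At 4 h it was 0.00023 and 0.33, so Furin was not lower in the RNA labelled KO on either 4 h array. At 24 h it was -0.59 and -0.69. Where the Furin probe lies relative to the deleted part was not given in the sources used here. Lyz2, whose locus carries the Cre, was lower in KO on all 8 arrays, including both 4 h arrays (-1.04 and -1.13), and its mean over the LPS times was -1.27 (SE 0.07, adjusted p = 0.000868 in limma). All KO directions at 4 h below are those of the RNA labelled KO.

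All 5 measured macrophage markers (Adgre1, Csf1r, Itgam, Cd14 and Lyz2) were well above background in all 16 channels. Their summed intensity had a log2 KO/WT of -0.51 and -0.25 at rest, -0.60 and -0.33 after 1 h, -0.28 and 0.13 after 4 h, and -0.50 and -0.82 after 24 h. Without Lyz2, whose locus carries the Cre, the sum of the other 4 gave -0.16 and 0.0081 at rest, -0.34 and -0.07 after 1 h, 0.02 and 0.51 after 4 h, and -0.19 and -0.69 after 24 h. The sum of 5 markers of large peritoneal macrophages (Gata6, Timd4, Icam2, Selp and Garnl3) was higher in KO on all 8 arrays, by 0.05 to 0.76, while the median ratio of these markers was below 0 on 2 of them (-0.13 on 1 h replicate 1 and -0.0099 on 24 h replicate 2). Markers of other peritoneal cells were also present. All 5 measured B cell markers and 4 of 6 T and NK cell markers (not Ncr1 or Klrb1c) were above background in all 16 channels. The summed B cell list had a log2 KO/WT of 0.16 and 0.32 at rest, 0.60 and 0.32 after 1 h, -0.39 and -0.05 after 4 h, and 0.07 and 0.33 after 24 h. In resting cells that sum ran from 72271 to 104844 in KO and from 64497 to 84086 in WT, in normalised intensity. The T and NK cell sum went opposite ways in the replicates at all 4 times, with 1.43 and -0.10 at 1 h, as did that of 6 markers of steroid-producing cells (-1.99 and 0.91 at rest, Cyp11b1 detected in no channel). The mast cell sum (all 6 markers detected) did so at rest (-0.21 and 0.87) and 4 h, and was higher in KO on both arrays at 1 h and 24 h. Of 5 neutrophil markers S100a8 and Camp were above background in all 16 channels and S100a9, Mpo and Cxcr2 in none. S100a8 was the brighter, at log2 10.64 to 15.97 against 7.59 to 9.89 for Camp. The neutrophil sum was lower in KO on both arrays at rest (-0.09 and -0.42) and 1 h (-0.41 and -0.56). At rest the 5 genes and the sum of 5 macrophage markers were lower on both arrays too. The neutrophil sum differed in sign between the replicates at 4 h (-0.34 and 0.01) and 24 h (-0.68 and 1.51). The mesothelial and fibroblast sum (8 of 10 detected in at least 1 channel) lay between -0.30 and 0.30 on all 8 arrays. In these bulk samples fewer cells of a type and less RNA per cell cannot be told apart, and the part of other cells in the results on the 5 genes was not tested.

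In resting cells the 5 genes had lower values in KO on both arrays for the brighter or only probe. Log2 KO/WT was -0.72 and -1.10 for Tbc1d2, a KO level of 53.3% of WT on average. It was -0.86 and -0.74 for Prom1 (57.6% of WT) and -0.91 and -0.76 for Mfsd7a (56.2% of WT). It was nearer to 0 for Tmcc3, at -0.30 and -0.47 (76.7% of WT), and for Tns1, at -0.38 and -0.24 (80.7% of WT). Over all features 23.8% lay below 0 on both resting arrays, and nothing is read from this share since the contrast chose the members. The dimmer probes, which belong to the same contrast, gave -0.66 and -0.85 for Tbc1d2, -0.34 and -0.22 for Tmcc3, and -0.91 and -0.64 for Tns1. The dimmer Prom1 probe was above background in none of the 16 channels (normalised log2 intensity 5.96 to 6.19), and no ratio is read from it.

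**Figure D1:**
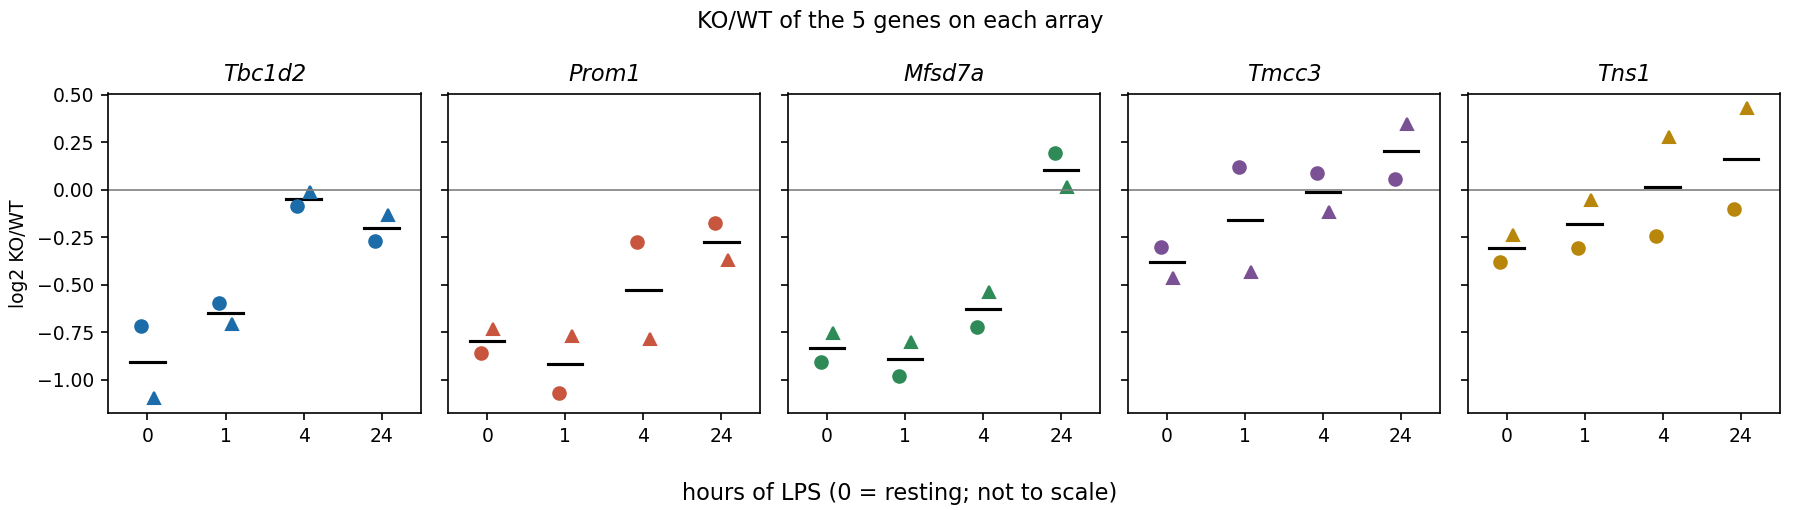
Log2 KO/WT of the brighter or only probe of each gene on each array (y axis) by hours of LPS (x axis, not to scale), with circles for replicate 1, triangles for replicate 2 and a bar for their mean. Tbc1d2, Prom1 and Mfsd7a lie between -1.07 and -0.59 on both 1 h arrays, Tmcc3 and Tns1 between -0.44 and 0.12, and at 24 h both Mfsd7a points are at or above 0.01.

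After 1 h of LPS, on arrays other than those that chose the genes, 3 of the 5 genes had every KO level below every WT level for the brighter or only probe. Over all features the KO/WT ratios at rest and at 1 h were correlated (Pearson r = 0.54 for the mean ratios, and 0.68 for the deviations of the replicates, across genes that are not independent). The 1 h values of genes selected for low resting ratios are therefore not independent of that selection, and shares of all features are no measure of what selected genes would show without a difference. Mfsd7a was 9.31 and 9.29 in KO against 10.29 and 10.09 in WT (normalised log2 intensity), a log2 KO/WT of -0.98 and -0.80. Prom1 was 7.57 and 7.72 in KO against 8.63 and 8.49 in WT, a log2 KO/WT of -1.07 and -0.77. Tbc1d2 was 9.13 and 8.94 in KO against 9.73 and 9.64 in WT, a log2 KO/WT of -0.59 and -0.70. KO levels all lay below WT levels in this way for 15.7% of all features at 1 h. At 4 h they did so for 2 of the 5 genes and 12.5% of all features, and at 24 h for 1 of the 5 and 13.5%. The mean differences were -0.89 for Mfsd7a (SE 0.10), -0.92 for Prom1 (SE 0.14) and -0.65 for Tbc1d2 (SE 0.11), and their adjusted p-values in limma were 0.206, 0.258 and 0.340. No feature passed an adjusted p of 0.05 at 1 h (0% of 36947 tested, 2018 at an unadjusted p under 0.05). With the replicate as a block all 3 were called, with adjusted p = 0.00644 for Mfsd7a, 0.0164 for Prom1 and 0.0239 for Tbc1d2, where 0.577% of all features were called in either direction. That fit includes the resting arrays. The block takes the shared shift between the 2 biological replicates out of the error. Its p-values therefore do not measure the full spread between replicates, here and for every block result below. With the block and the 6 LPS arrays alone, an alternative chosen after seeing the data, the adjusted p-values were 0.0164, 0.0312 and 0.0334, where 0.268% of all features were called. Without the block those 6 arrays gave 0.385, 0.463 and 0.463.

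For the brighter probes of Tmcc3 and Tns1 the KO and WT levels overlapped at 1 h. Log2 KO/WT of Tmcc3 was 0.12 and -0.44, with levels from 10.99 to 11.24 in KO and from 11.12 to 11.42 in WT. Log2 KO/WT of Tns1 was -0.31 and -0.06, from KO levels of 12.47 and 12.17 and WT levels of 12.78 and 12.22. Their dimmer probes did not overlap at 1 h, so the count of 3 genes depends on the probe. The dimmer Tmcc3 probe was at 8.91 and 8.86 in KO against 8.99 and 8.97 in WT, a log2 KO/WT of -0.08 and -0.11. The dimmer Tns1 probe, well above background in all 4 channels, gave -0.91 and -0.11 at 1 h, a mean of -0.51 (SE 0.22, adjusted p = 1.00 with every probe as its own row), and that of Tbc1d2 gave a mean of -0.50 (SE 0.14, adjusted p = 0.714). Differences between the genes were not tested. For the brighter probes neither Tmcc3 nor Tns1 was called with or without the block (smallest adjusted p of these fits 0.533, for Tns1 with the block). On 1 h arrays 24.9% of all features lay below 0 on both, as 4 of the 5 members did.

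Over the 3 LPS times together, Mfsd7a was the member called lower in KO. Its mean log2 KO/WT over 1, 4 and 24 h was -0.47 (SE 0.06, adjusted p = 0.0383 in limma), a 1.39-fold lower level. The error of this fit takes in the spread between the 2 resting arrays, on whose ratios the genes were selected, and with the 6 LPS arrays alone the call was lost (adjusted p = 0.0857). In the main fit Mfsd7a was 1 of 5 members called, where 0.103% of all features were called (38 of 36947, 21 of them lower in KO). With the 6 LPS arrays alone 8 features were called. Prom1 had a larger mean difference and did not pass, at -0.57 (SE 0.08, adjusted p = 0.0542), and Tbc1d2 was at -0.30 (SE 0.06, adjusted p = 0.183). Tmcc3 was at 0.01 (SE 0.08) and Tns1 at -0.0012 (SE 0.09), the adjusted p being 0.999 for Tmcc3 and 1.00 for Tns1. With the replicate as a block Mfsd7a (adjusted p = 0.00164), Prom1 (0.00262) and Tbc1d2 (0.0234) were called, where 2.77% of all features were. With the block and the 6 LPS arrays alone they were also called (adjusted p = 0.00450, 0.00589 and 0.0226), where 2.09% of all features were. Without any one of the 8 arrays the Mfsd7a call was lost, with adjusted p from 0.0631 to 0.186 and differences from -0.50 to -0.44. Without both 4 h arrays, an alternative chosen after seeing the data, the mean of 1 and 24 h was -0.39 and the adjusted p was 0.184.

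Tbc1d2 and Prom1 were below 0 on all 6 LPS arrays, which 2.46% of all features were. On both 4 h arrays 3 of the 5 members lay below 0 (Tbc1d2, Prom1 and Mfsd7a), against 22.4% of all features. On both 24 h arrays 2 did (Tbc1d2 and Prom1), against 21.6%. Mean ratios at rest were also correlated with those at 4 h (Pearson r = 0.35) and 24 h (0.26), across genes that are not independent. Deviations of the replicates were too (0.54 and 0.51). Shares at 4 h, at 24 h and over the LPS times are thus no measure of what selected genes would show without a difference. Probes above background on no array had a median normalised log2 intensity of 6.18 (5th to 95th percentile 5.95 to 6.45). The part of background in these ratios was not tested.

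At 4 h the Tbc1d2 difference was not detectable. Its levels were 7.03 and 7.18 in KO and 7.11 and 7.19 in WT, and its log2 KO/WT was -0.08 and -0.01, with a mean of -0.05 (SE 0.11, adjusted p = 1.00). By then the signal had come within 1.2 log2 units of the background median in both genotypes. Its dimmer probe was above background in only 1 of 2 KO channels at 4 h and gave -0.41 and 0.18. At 24 h the brighter probe was at 7.78 and 8.07 in KO against 8.05 and 8.20 in WT, a log2 KO/WT of -0.27 and -0.13 (mean -0.20, SE 0.11, adjusted p = 1.00). The KO and WT ranges met at 24 h, the higher KO level lying above the lower WT level. The rise of the ratio from 1 h to 4 h was 0.60 (SE 0.16, adjusted p = 1.00).

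Prom1 had lower values in KO at both later times, without passing the test. At 4 h it was 7.25 and 6.91 in KO against 7.53 and 7.69 in WT, a log2 KO/WT of -0.27 and -0.78 (mean -0.53, SE 0.14, adjusted p = 0.645). At 24 h it was 6.63 and 6.58 in KO against 6.81 and 6.95 in WT, a log2 KO/WT of -0.17 and -0.37 (mean -0.27, SE 0.14, adjusted p = 1.00). The levels did not overlap at either time, and at 24 h the KO signal was above background on 1 of 2 arrays. The ratio rose by 0.65 from 1 h to 24 h (SE 0.19, adjusted p = 1.00).

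Mfsd7a was lower in KO on both arrays at 4 h, when its level was highest, and on neither at 24 h. At 4 h it was 10.49 and 10.53 in KO against 11.21 and 11.06 in WT, a log2 KO/WT of -0.72 and -0.54. The mean of -0.63 (SE 0.10) had an adjusted p of 0.193 in limma, where 0.00812% of all features (3) were called, and of 0.0163 with the replicate as a block, where 0.568% were called. With the block and the LPS arrays alone the adjusted p was 0.0368, where 0.425% were called. At 24 h it was 8.38 and 8.44 in KO against 8.19 and 8.43 in WT, a log2 KO/WT of 0.19 and 0.01. The mean was 0.10 (SE 0.10, adjusted p = 1.00), and KO and WT levels overlapped, well above background in all 4 channels. No member was called at 24 h in either fit, where 0.0244% of all features (9) were called, and 0.585% with the block.

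The change of the Mfsd7a ratio with time was itself tested within the LPS times. From 1 h to 24 h it rose by 0.99 (SE 0.14), with adjusted p = 0.509 in limma and 0.0259 with the replicate as a block. No feature was called for this change without the block (0% of 36947, 977 at an unadjusted p under 0.05), and 0.0839% were called with it. With the block and the LPS arrays alone the Mfsd7a call for this change was lost (adjusted p = 0.0578), where 0.0568% of all features were called. From 4 h to 24 h the Mfsd7a ratio rose by 0.73 (SE 0.14), with adjusted p = 0.576 and, with the block, 0.0723. From 1 h to 4 h it rose by 0.26 (SE 0.14, adjusted p = 1.00). The other members were not called for any of these changes in either fit. With the block 0.0217% of all features were called for the change from 1 h to 4 h and 0.16% for that from 4 h to 24 h, and without it 0% for either.

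No difference between genotypes was called for Tmcc3 or Tns1 after 4 or 24 h. On the 4 h arrays log2 KO/WT of Tmcc3 was 0.09 and -0.12, and on the 24 h arrays it was 0.06 and 0.35. For Tns1 the 4 h arrays gave -0.24 and 0.28, and those of 24 h gave -0.10 and 0.43. The 2 Tns1 values at each of these times lay on opposite sides of 0, with replicate 2, in which KO carried Cy3, above replicate 1 at every time. None of these 4 means, from -0.01 to 0.20, was called with or without the block. The dimmer Tns1 probe gave -0.37 and 0.49 at 4 h, and -0.32 and 0.06 at 24 h, again on opposite sides of 0. The dimmer Tmcc3 probe gave log2 KO/WT from -0.12 to 0.08 on the 6 LPS arrays.

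**Figure D2:**
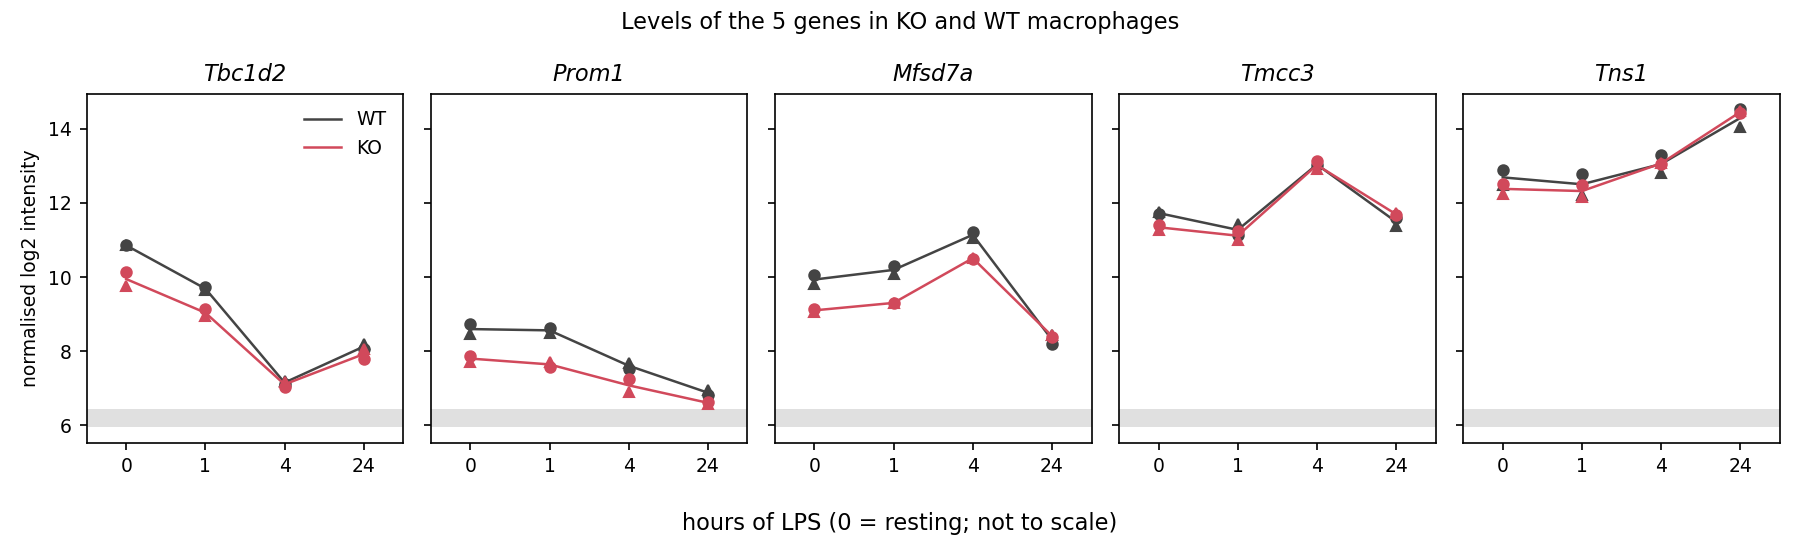
Normalised log2 intensity (y axis) of the brighter or only probe of each gene in KO (red) and WT (grey) by hours of LPS (x axis, not to scale), with circles for replicate 1, triangles for replicate 2, lines through the means and a grey band for probes above background on no array (5.95 to 6.45). Tbc1d2 comes nearest to the band at 4 h and Prom1 at 24 h, and Mfsd7a and Tmcc3 are highest at 4 h.

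The LPS response of the 5 genes, taken as the mean of KO and WT, fell into different courses. This mean does not use the KO/WT difference that chose the genes, but it shares the resting channels with it. The study also left out genes of low average expression, so the choice was not wholly free of levels. The mean was tested over the channels of all 8 arrays. Of the members 2 passed at 1 h, all 5 at 4 h and 4 at 24 h, whereas 14.6%, 42.6% and 37.1% of all 36927 features passed at these times. At 4 h 3 members rose and 2 fell, where 19.6% of all features rose and 23% fell. At 24 h 1 rose and 3 fell, where 16.5% rose and 20.6% fell. All 5 were called between 4 h and 24 h, as were 38% of all features. Called features were thus common, more so among brighter features, and the counts of members are not read as an excess.

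By the brighter or only probes Tbc1d2 had the largest fall. WT levels were 10.86 and 10.85 at rest, 9.73 and 9.64 after 1 h, 7.11 and 7.19 after 4 h, and 8.05 and 8.20 after 24 h. KO levels were 10.14 and 9.75 at rest and followed the same order. The mean of the genotypes was 2.05-fold lower at 1 h (log2 difference -1.04, SE 0.10, adjusted p = 7.1e-06 in limma), 9.66-fold lower at 4 h (-3.27, SE 0.10, adjusted p = 9.1e-12) and 5.19-fold lower at 24 h (-2.38, SE 0.10, adjusted p = 3.2e-10). From 4 h to 24 h it rose by 0.89 (SE 0.10, adjusted p = 5.5e-06). Its 2 probes moved together, with a Pearson correlation of 0.99 over the 16 channels, which share arrays and are a description only.

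Prom1 fell later and did not recover. WT levels were 8.74 and 8.45 at rest, 8.63 and 8.49 after 1 h, 7.53 and 7.69 after 4 h, and 6.81 and 6.95 after 24 h. KO levels were 7.88 and 7.72 at rest and 6.63 and 6.58 at 24 h. The difference from rest was -0.10 at 1 h (SE 0.10, adjusted p = 0.664), -0.85 at 4 h (SE 0.10, adjusted p = 7.8e-06) and -1.45 at 24 h (SE 0.10, adjusted p = 5.4e-08). At 24 h the KO signal was well above background on only 1 of 2 arrays. The falls to 24 h are fitted means that may be understated, and their sizes are not read as exact. It also fell from 4 h to 24 h, by 0.60 (SE 0.10, adjusted p = 0.000279).

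Mfsd7a rose and then fell below its resting level. WT levels were 10.05 and 9.82 at rest, 10.29 and 10.09 after 1 h, 11.21 and 11.06 after 4 h, and 8.19 and 8.43 after 24 h. The difference from rest was 0.23 at 1 h (SE 0.08, adjusted p = 0.0922), 1.31 at 4 h (SE 0.08, adjusted p = 1.3e-08), which is 2.47-fold higher, and -1.16 at 24 h (SE 0.08, adjusted p = 7.3e-08), which is 2.23-fold lower. From 4 h to 24 h the mean of the genotypes fell by 2.46 (SE 0.08, adjusted p = 1.2e-10), a 5.51-fold drop. Between these times WT went from a mean of 11.14 to 8.31, and KO from 10.49 and 10.53 to 8.38 and 8.44, so that the genotypes ended at overlapping levels.

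Tmcc3 had a passing rise. WT levels were 11.71 and 11.74 at rest, 11.12 and 11.42 after 1 h, 13.03 and 13.04 after 4 h, and 11.60 and 11.38 after 24 h. The difference from rest was -0.34 at 1 h (SE 0.10, adjusted p = 0.0330), 1.49 at 4 h (SE 0.10, adjusted p = 1.6e-08), a 2.82-fold higher level, and 0.06 at 24 h (SE 0.10, adjusted p = 0.724). From 4 h to 24 h it fell by 1.44 (SE 0.10, adjusted p = 4.4e-08). The 1 h value was called only in part: the adjusted p was between 0.0424 and 0.195 without each array in turn, and without either array of rest or of 1 h it was above 0.05, the highest value being that without resting replicate 1. It also rests on the brighter probe, since the dimmer probe, detected in all 16 channels, gave -0.01 at 1 h (SE 0.08, adjusted p = 0.966) with every probe as its own row. At 4 h the dimmer probe gave 1.82 (SE 0.08, adjusted p = 1.9e-10). The 2 probes had a Pearson correlation of 0.96 over the 16 channels.

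**Figure D3:**
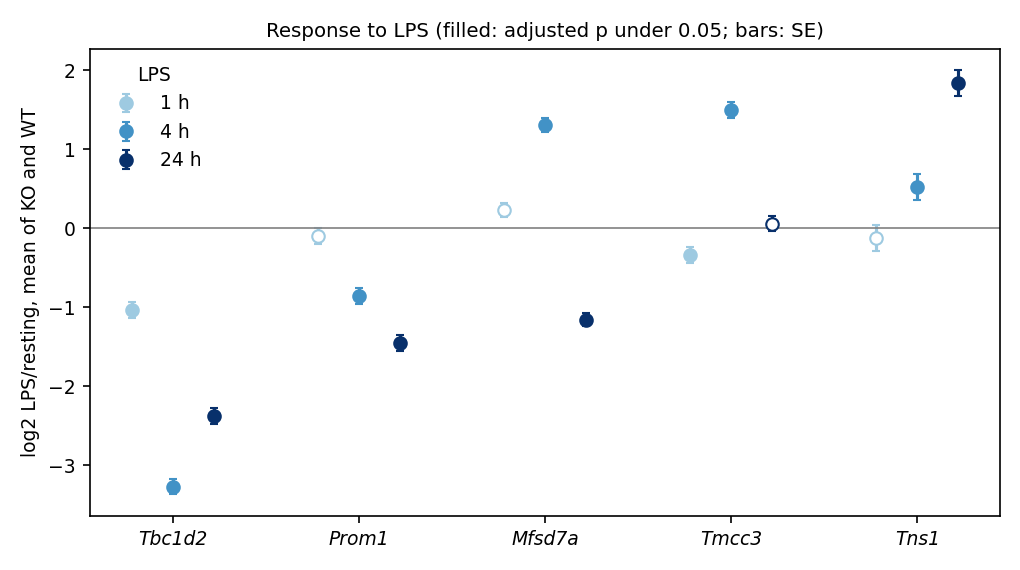
Log2 difference from rest of the mean of KO and WT (y axis) for the brighter or only probe of each gene after 1, 4 and 24 h of LPS (light to dark blue), with bars for the SE and filled points for an adjusted p under 0.05. Tbc1d2 is below 0 at all 3 times, Mfsd7a changes sign between 4 h (1.31) and 24 h (-1.16), and Tns1 is highest at 24 h (1.84).

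Tns1 was the member whose course depended on the probe. By its brighter probe, WT levels were 12.90 and 12.48 at rest, 12.78 and 12.22 after 1 h, 13.30 and 12.80 after 4 h, and 14.52 and 14.05 after 24 h. The difference from rest was -0.12 at 1 h (SE 0.16, adjusted p = 0.743), 0.52 at 4 h (SE 0.16, adjusted p = 0.0180) and 1.84 at 24 h (SE 0.16, adjusted p = 5.4e-07), the last a 3.57-fold higher level. The call at 4 h was lost without resting replicate 2 (difference 0.35, adjusted p = 0.213) and without LPS 4 h replicate 1 (0.40, adjusted p = 0.135).

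The dimmer Tns1 probe went the other way. WT levels were 11.0 and 10.52 at rest, 10.35 and 9.88 after 1 h, 7.52 and 7.28 after 4 h, and 6.82 and 6.59 after 24 h. KO levels were 10.09 and 9.88 at rest, 9.44 and 9.76 after 1 h, 7.14 and 7.76 after 4 h, and 6.50 and 6.65 after 24 h. In a fit with every probe as its own row, the difference from rest was -0.51 at 1 h (SE 0.17, adjusted p = 0.0640), -2.95 at 4 h (SE 0.17, adjusted p = 2.2e-09), which is 7.70-fold lower, and -3.73 at 24 h (SE 0.17, adjusted p = 3.3e-10). In that fit 12% of 55502 probes were called at 1 h, 37.4% at 4 h and 32% at 24 h. At 24 h the dimmer probe was well above background in 1 of 2 KO and 1 of 2 WT channels. The fall to 24 h is a fitted mean that may be understated, and its size is not read as exact.

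Both probes are assigned to Tns1 through the array's own transcript accessions, and RefSeq lists 36 transcripts for the gene. Their correlation over the 16 channels was -0.80. Which transcripts each probe matches was not analysed here. Any statement that Tns1 rose or fell with LPS therefore holds for a single probe: with the probes of a gene averaged, the values were -1.21 at 4 h (adjusted p = 2.2e-05) and -0.95 at 24 h (adjusted p = 0.000258).

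**Figure D4:**
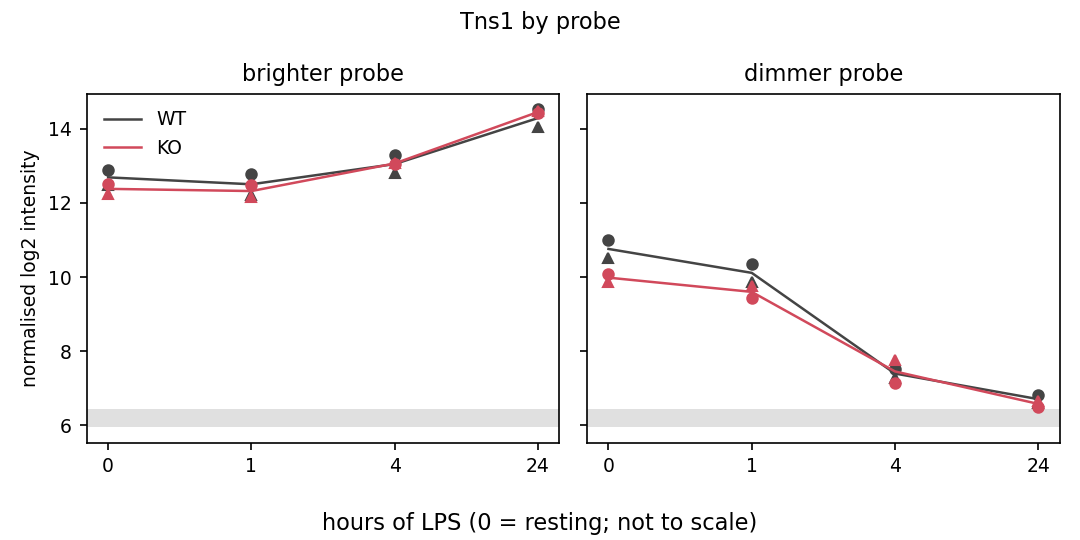
Normalised log2 intensity (y axis) of the brighter (left) and dimmer (right) Tns1 probe in KO (red) and WT (grey) by hours of LPS (x axis, not to scale), with circles for replicate 1, triangles for replicate 2, lines through the means and a grey band for probes above background on no array. From rest to 24 h the brighter probe rises in both genotypes while the dimmer probe falls to 6.50 to 6.82.

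Among themselves the 5 genes did not share 1 pattern across the 16 channels. Pearson correlations of normalised log2 intensity, a description over channels that share arrays and times, ran from -0.75 (Prom1 and Tns1) to 0.76 (Tbc1d2 and Prom1). Of 20834 named genes compared, the patterns most like that of Tbc1d2 were those of Cracr2b (r = 0.99) and Kank3 (0.99). Hhipl1 (0.99) was most like Prom1, and Lrrc75a (0.96) and Igsf8 (0.95) most like Mfsd7a. Urgcp and Ilrun (both 0.98) were most like Tmcc3, and Nmral1 and Cp (both 0.99) most like the brighter Tns1 probe.

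The closest relatives of the 5 genes were detected to differing degrees. Tns4 and Prom2 were above background in no channel, and Tns2 and Tmcc2 in some, Tmcc2 lying between -0.32 and 0.13 on the 6 LPS arrays and Tns2 between -0.44 and 0.04. Tmcc1, a paralog of Tmcc3 detected in all 16 channels, had log2 KO/WT of -0.37 and -0.54 on the 1 h arrays, and its replicates differed in sign at 4 h (0.03 and -0.41) and 24 h (0.17 and -0.56). Its mean over the LPS times was -0.28 (SE 0.10, adjusted p = 0.521), and it was called lower with the replicate as a block. Tbc1d2b, a paralog of Tbc1d2, gave log2 ratios of KO to WT of 0.18 and -0.58 on the 1 h arrays, 0.03 and -0.67 on those of 4 h, and 0.47 and -0.47 on those of 24 h, so its replicates disagreed in sign at every LPS time. Flvcr1, the heme exporter related to Mfsd7a, lay between -0.20 and 0.09 on the 6 LPS arrays. Tns3, which is expressed at all times, had -1.35 and -0.26 at 24 h.

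No gene of 5 lists built around the members (76 genes, all measured) was called in any KO/WT comparison after LPS without the block. At an unadjusted p under 0.05 there were 13 for the mean of the LPS times, 8 at 1 h, 4 at 4 h and 8 at 24 h, where 7.45%, 5.46%, 4.31% and 3.42% of all features were. With the replicate as a block 7 of the 76 were called for that mean (2.77% of all features), 6 of them lower in KO. At 4 h the block called Hmox1, the heme-degrading enzyme heme oxygenase 1 (-0.63, where 0.568% of all features were called), and at 24 h Hmox1 (-0.58) and Fn1 (-0.93), where 0.585% were. The medians of log2 KO/WT over the LPS times were between -0.14 and -0.02 for the 5 lists, with 0.00066 for all features. With LPS 14 of the 19 TBC and Rab7 endosome genes fell at 4 h and 0 rose, with a median of -1.10 against 0.0032 for all features, where 23% of all features were called lower. At 24 h 14 fell and 1 rose, with a median of -0.70 against -0.01 for all features. At that time 20.6% of all features were called lower and 16.5% higher. These shares include dim features. With the intensity filter raised from 6 to 8, 10765 of 13087 features were called in either direction at 4 h and 9910 at 24 h. The median of those features was -0.12 at 4 h and -0.11 at 24 h. The numbers of called genes in this and the other lists are therefore not read as an excess.

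The largest falls in that list at 4 h were those of Plekhm1, an adaptor of Rab7 in lysosome fusion, at -3.42 (SE 0.08, adjusted p = 1.2e-12), of Map1lc3b, which encodes the autophagosome protein LC3B, at -2.77 (SE 0.10, adjusted p = 3.9e-11), and of Rubcn, an inhibitor of autophagosome maturation, at -2.76 (SE 0.15, adjusted p = 1.8e-09). Rab7 itself was at 0.02 (SE 0.11, adjusted p = 0.901). At 24 h Map1lc3b was at -2.25, Plekhm1 at -2.09 and Tbc1d2b at -2.02, all called. Genes of that list that fell include the HOPS tethering subunits Vps18 (-1.74 at 4 h) and Vps39 (-1.34 at 4 h), chosen after their values were seen. The list also holds the HOPS subunits Vps11, Vps16, Vps33a and Vps41, whose LPS values are not given here, so nothing is read about HOPS as a whole.

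At 4 h 19.6% of all features were called higher and 23% lower, and the other lists held genes called in both directions. Of 25 tensin and focal adhesion genes 9 rose and 9 fell, led by Itga5, the fibronectin receptor subunit, at 2.08, Fermt3 (kindlin-3) at -1.18 and Dlc1 at 1.05. Of 15 TMCC and ER shaping genes 6 rose and 6 fell, led by Ckap4 at -1.77, Reep5 at -1.66 and Lnpk, which acts at ER tubule junctions, at 1.44. Of 8 SLC49 and heme handling genes 2 rose and 3 fell, led by the lysosomal heme transporter Slc48a1 at -2.62, Slc46a1 at -1.06 and Flvcr2 at 0.76. Of 9 prominin and membrane protrusion genes 3 rose and 4 fell, led by Cav1 (caveolin-1) at 2.64, Eps8 at -2.38 and Hdac6 at -0.98.

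At 24 h 5 of 8 SLC49 and heme handling genes were lower and 1 was higher, with a median of -0.58, where 20.6% of all features were called lower and 16.5% higher. The largest values there were those of Slc48a1 (-1.51), Slc46a1 (-0.91) and Slc49a4 (-0.68). Of the tensin and focal adhesion genes 5 rose and 11 fell at 24 h. Fn1, which encodes fibronectin, fell by 5.50 on the log2 scale (SE 0.17, adjusted p = 1.8e-11), while Itga5 rose by 1.60 and Bcar1 by 1.32. In the ER shaping list 6 rose and 5 fell, led by Reep5 (-1.71), Reep3 (-1.60) and Rrbp1 (0.94), and in the prominin list 1 rose and 3 fell, led by Eps8 (-1.55), Flot1 (-1.53) and Flot2 (-0.53).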

How the data were processed

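Per the file headers and the study's methods, the authors scanned 1 slide of 8 two-colour arrays and extracted the spots with Agilent Feature Extraction 10.7.3. The deposited scanner files hold raw intensity for each spot and colour, and the deposited matrix holds the authors' normalised log2 ratios of Cy5 to Cy3. That matrix was used only as an alternative. Its centring and further scaling are not stated.

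From the intensities, normexp background correction (offset 50), loess within arrays and quantile normalisation between arrays were run in limma 3.58.1 (R 4.3.3). Replicate spots were averaged per probe, and each gene was represented by its brightest probe. Features with a mean log2 intensity under 6 were left out. KO/WT was fitted as log ratios (4 residual degrees of freedom), and LPS responses as separate channels with a within-spot correlation of 0.113 (statmod 1.5.0). The fits covered all features, p-values were adjusted by Benjamini-Hochberg over all of them, and the threshold was 0.05. A level is a normalised log2 intensity. Between 43.8% and 51.3% of spots were well above background in a channel, and the number of arrays limits the precision. The fits were checked on simulated data.

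Samples were grouped by their titles. Same-numbered samples deviated together at all 6 pairs of times (r from 0.475 to 0.679), so the numbers were taken to pair the samples, and a fit with the replicate as a block was added. Dye follows the replicate number, so the block takes up a dye effect as well, and the source of this correlation was not tested. P-values of the block fit leave out the shared shift between replicates and do not measure their full spread. The 5 genes, the gene lists and the cell type markers were chosen with earlier results of these data known. The genes named are the 5, Furin, Lyz2, their relatives, the 2 genes most correlated with each, and up to 3 genes a list by size of change. Rab7, Vps18, Vps39 and Hmox1 lie outside that rule and were chosen after their values were seen. One gene that the rule names is not reported here. The array's accessions were named through RefSeq's GRCm38.p6 table. The alternatives were other background signals, normalisations, filters and probe rules, 1 array left out, the 6 LPS arrays alone, the deposited ratios, and the two-sample test of the study's methods.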

Additional observations from a re-analysis of the deposited data

Results flagged for a closer look

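Mfsd7a was marked because both resting arrays lay below 0 (log2 KO/WT -0.91 and -0.76) and both 24 h arrays above it (0.19 and 0.01), a difference of 0.93 between the mean ratios. Tmcc3 was marked for the same reason, with -0.30 and -0.47 at rest, 0.06 and 0.35 at 24 h, and a difference of 0.58. Neither difference from rest was tested, since the resting ratio chose the genes. No group held enough arrays for a check of single outlying arrays.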

How the results depend on the processing

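The number of members called for the mean KO/WT over the LPS times, 1 in the report, was 3 with the replicate block, 2 with loess alone, Aquantile, every probe as its own row or the authors' deposited ratios, and 0 with the 6 LPS arrays alone, the methods' t-test, the scanner software's processed signals, an intensity filter of 8, the mean of a gene's probes, the mean of 1 and 24 h, or any array left out (0 to 0). With the block it was 3 at 1 h, 1 at 4 h and 1 for the change from 1 h to 24 h, and otherwise 0. With the block and the 6 LPS arrays alone, added after seeing the data, it was 3 for the mean, 3 at 1 h and 1 at 4 h, and 0 for the changes. The block changed no other KO/WT call of a member. For LPS at 1 h the count fell from 2 to 1 with loess alone or the mean of probes, and ran from 1 to 2 with an array left out. The median resting KO/WT of the members was -0.80, and -0.65 with processed signals, -0.82 with loess alone, Aquantile or the deposited ratios, -0.61 with the filter of 8 (which left out Prom1), -0.54 with the mean of probes and -0.80 to -0.72 with an array left out.

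Some values changed sign, most of them near 0. With processed signals these were Tmcc3 at 4 h (0.0033) and the Tbc1d2 change from 4 h to 24 h (0.033). With the mean of probes these were Tmcc3 over the LPS times (-0.0085), the Tns1 change from 4 h to 24 h (-0.019), Prom1 with LPS at 1 h (0.024) and Tmcc3 with LPS at 24 h (-0.024). Far from 0, Tns1 with LPS also turned with the mean of probes, at 4 h (-1.21) and 24 h (-0.95) against rest and at 4 h against 1 h (-0.89), where the averaged probes move oppositely. With an array left out, KO/WT ran from -0.083 to 0.10 for Tmcc3 and from -0.090 to 0.088 for Tns1 over the LPS times, from -0.44 to 0.12 for Tmcc3 at 1 h and from -0.12 to 0.089 at 4 h, and for Tns1 from -0.24 to 0.28 at 4 h and from -0.10 to 0.43 at 24 h. Its change from 1 h to 4 h ran from -0.13 to 0.42 for Tmcc3 and from -0.060 to 0.46 for Tns1, and that from 4 h to 24 h from -0.12 to 0.41 for Tns1. The LPS difference at 1 h ran from -0.21 to 0.017 for Prom1 and from -0.34 to 0.091 for Tns1. The cause of these changes of sign was not tested.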
